A study of Rattus norvegicus with 46 samples.

Results

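The mitochondrial solute carriers of the SLC25 family were followed through liver and quadriceps muscle of rats. Members were the rows of the count table whose symbol is Slc25a and a number, with Slc25a25 left out, 1 row per symbol, kept where the mean over all liver or all quadriceps libraries reached 1 CPM, the usual read count scaled by library size. Of 47 such symbols 41 were kept, out of 32552 genes in the table. Of these, 36 reached 1 CPM in both tissues and 5 only in liver (Slc25a21, Slc25a22, Slc25a43, Slc25a47 and Slc25a48). The nearest member inside the limit was Slc25a43, at 1.01 CPM in liver, and the nearest symbol outside it was Slc25a6, at 0.771 CPM in liver. The other symbols not kept were Slc25a18, Slc25a31, Slc25a41, Slc25a52 and Slc25a54.

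Each library is bulk RNA of 1 tissue, all are labelled as genotype WT, and the design text, which speaks of liver, calls the rats DIO (diet-induced obese). The vehicle group was the control, food intake of the weight-matched group was restricted to match weight, and the CagriSema group received cagrilintide, a long-acting amylin analog, together with semaglutide, a GLP-1 receptor agonist. Liver, treated for 20 days, gave 8 libraries with vehicle, 8 with weight matching and 7 with CagriSema, and quadriceps gave 7, 8 and 8, with its treatment time, and the sex, age and strain of the rats, not stated in the sources used. Whether every library stands for its own animal is also not stated, and p-values here describe the spread among libraries, which may be technical in part. In bulk RNA, fewer cells of a type and less RNA per cell cannot be told apart.

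SLC25 proteins lie mostly in the inner mitochondrial membrane and exchange metabolites between the cytosol and the matrix: ADP for ATP, phosphate, citrate and other carboxylates, amino acids, acylcarnitines, iron and cofactors. Several substrates have a pair of related carriers that tissues use unequally. In liver the family serves the urea cycle, gluconeogenesis and lipid synthesis, and in muscle it serves the supply of ATP to the contractile fibres and the malate-aspartate shuttle, which carries reducing equivalents of glycolysis into mitochondria.

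Library totals ran from 9888858 to 16525274 counts, and carriers took 0.267% to 0.319% of the counts in liver and 0.449% to 0.701% in quadriceps. The summed level of 8 hepatocyte markers was at least 78012 CPM in every liver library, and that of 7 muscle fibre markers was at least 112790 CPM in every quadriceps library. Liver vehicle library 1 held 85.7 CPM of the muscle fibre markers, against 0.898 to 2.72 CPM in the other liver libraries. Hepatocyte markers reached 47.7 CPM in quadriceps vehicle library 2, and 14.5 and 19.0 CPM in CagriSema libraries 39 and 40, against at most 4.96 CPM in the other quadriceps libraries. Liver vehicle library 4 stood apart, with the highest level of 14 and the lowest level of 12 of the 41 carriers among the 23 livers and with 1.85% of its counts from ribosomal protein genes. In liver vehicle library 6, 9.29% of counts were from mitochondrially encoded genes. In quadriceps, vehicle library 2 was lowest for 16 of 36 carriers and vehicle library 8 highest for 7, and vehicle libraries 2 and 5 were left out together in 1 alternative. All of these libraries were kept.

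The 250 bases before the annotated start of the genes on which the tissue comparison turns are shown here: the ADP/ATP carriers Slc25a4 (chr16:52805271-52805520, plus strand) and Slc25a5 (chrX:120897366-120897615, plus strand), the aspartate/glutamate carriers Slc25a12 (chr3:76599537-76599786, minus strand) and Slc25a13 (chr4:35328361-35328610, minus strand), and the liver carrier Slc25a47 (chr6:133531491-133531740, plus strand). They are from RefSeq on build GRCr8, 5′ to 3′ on the strand of the gene, and capitals mark the matches found to the motifs described after them.
Slc25a4: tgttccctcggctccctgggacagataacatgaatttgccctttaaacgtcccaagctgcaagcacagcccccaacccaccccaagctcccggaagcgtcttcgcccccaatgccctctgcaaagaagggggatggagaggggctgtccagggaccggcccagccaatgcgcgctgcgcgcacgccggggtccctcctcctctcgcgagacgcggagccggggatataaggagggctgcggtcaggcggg
Slc25a5: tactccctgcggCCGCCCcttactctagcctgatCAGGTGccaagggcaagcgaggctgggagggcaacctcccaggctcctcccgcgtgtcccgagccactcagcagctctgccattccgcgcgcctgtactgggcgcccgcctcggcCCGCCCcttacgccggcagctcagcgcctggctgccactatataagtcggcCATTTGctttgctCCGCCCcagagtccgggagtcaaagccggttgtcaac
Slc25a12: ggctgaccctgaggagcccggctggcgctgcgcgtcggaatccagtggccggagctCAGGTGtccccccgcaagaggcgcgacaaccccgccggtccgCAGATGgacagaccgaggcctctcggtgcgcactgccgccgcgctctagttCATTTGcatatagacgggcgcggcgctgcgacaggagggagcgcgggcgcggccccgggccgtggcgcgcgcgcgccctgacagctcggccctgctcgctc
Slc25a13: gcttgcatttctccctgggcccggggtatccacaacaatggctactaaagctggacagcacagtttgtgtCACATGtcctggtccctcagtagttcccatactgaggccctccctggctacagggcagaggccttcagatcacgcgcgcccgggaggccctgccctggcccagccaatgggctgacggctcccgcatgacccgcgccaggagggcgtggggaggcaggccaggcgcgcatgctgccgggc
Slc25a47: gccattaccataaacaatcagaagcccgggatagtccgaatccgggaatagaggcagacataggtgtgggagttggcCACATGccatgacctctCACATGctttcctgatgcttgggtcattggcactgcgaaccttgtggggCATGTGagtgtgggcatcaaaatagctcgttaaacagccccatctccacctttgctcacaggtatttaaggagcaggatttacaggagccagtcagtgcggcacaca

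Of the 41 carriers, 34 had a promoter in the RefSeq table, and the same 250 bases were searched on both strands. The GC box GGGCGG was in 20 of the 34 (58.8%), against 32.4% of all 27457 promoters of the table. Slc25a40 held 6 matches, Slc25a39 held 5 and Slc25a1 held 4. Slc25a5 held 3 GC boxes, and Slc25a4, Slc25a12, Slc25a13 and Slc25a47 held none. The E-box CANNTG was in 19 carriers (55.9%, against 65.2% of all), with 3 matches each in Slc25a2, Slc25a12 and Slc25a47. TATAAA was found in Slc25a38 (bases -228 to -223) and Slc25a48 (bases -116 to -111, minus strand) alone (5.88%, against 13.1%). The search took exact letters only, and the near match TATAAG is in the windows shown for Slc25a4 and Slc25a5. The nuclear receptor half-site AAGGTCA was in Slc25a34 alone (2.94%, against 3.77%). The letters CAAAGTCCA, TCACNCCAC and the HNF1 motif were not in these windows, and 0.331%, 0.976% and 0.00364% of all promoters held them. GC boxes were in 9 of the 18 promoters of carriers higher in liver and in 9 of the 14 of carriers higher in quadriceps, so both sets held them. The 18 include the 5 carriers kept through liver alone, whose place there followed from the member rule. Of these 5, only Slc25a22 held a GC box. Median GC content was 59.2% in the carriers and 52% in all promoters. A match describes letters and does not show that a factor binds.

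Across all 46 libraries, 39 of the 41 carriers differed between liver and quadriceps by the quasi-likelihood test of edgeR at an adjusted p of 0.05, 21 higher and 18 lower in liver. In the same fit 90.7% of 14110 genes passed (47.3% higher and 43.4% lower in liver), so that passing alone says little of the carriers. The 5 carriers kept through liver alone had to be higher there. Among the 36 at 1 CPM in both tissues, 16 were higher and 18 lower in liver, with a median log2 difference of -0.24. The median over all genes was 0.07, but without that limit on level, so the 2 medians are not like for like. With the 5 liver carriers included, the carrier median was positive, at 0.190 to 0.258 in the 46 fits that left out 1 library. Among the 36, sizes ran further than the median shows, from -9.37 in Slc25a4 to 7.09 in Slc25a1. Levels are not compared between different carriers, since no transcript lengths were used.

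**Figure D1:**
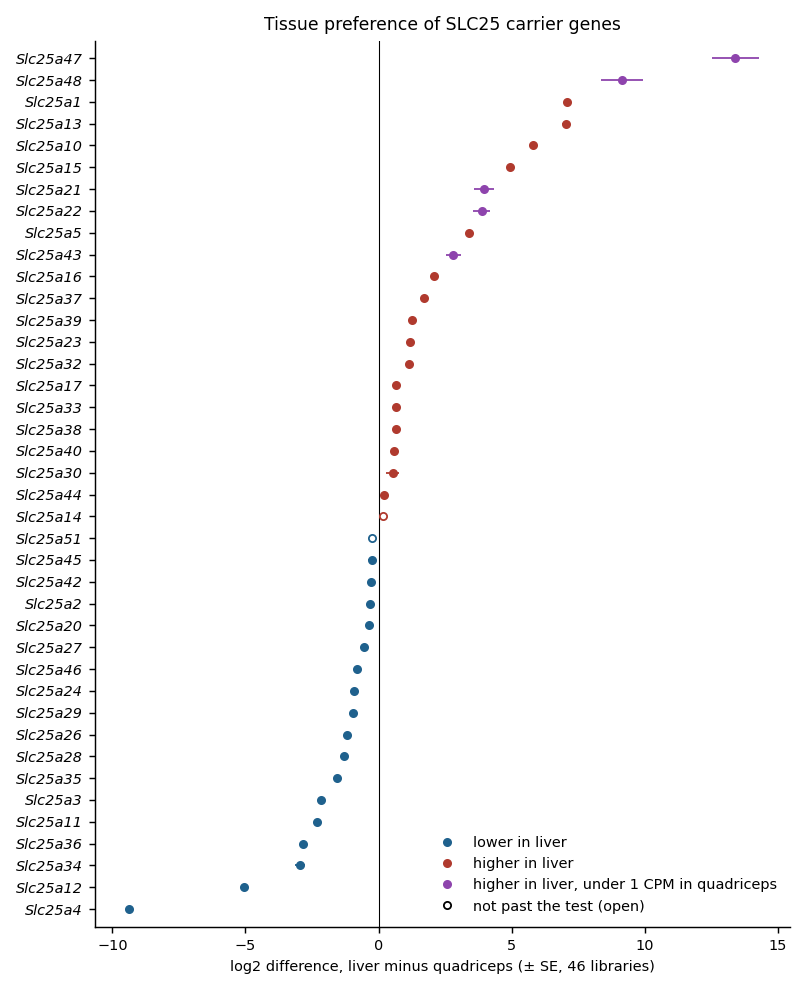
Log2 difference of the carriers reported, liver minus quadriceps (points, with bars of 1 SE from the fit to 46 libraries). Filled points passed the test, open points did not, and purple marks the 5 carriers under 1 CPM in quadriceps, whose fitted size rests on few counts. Slc25a4 at -9.37 and Slc25a12 at -5.07 lie farthest on the quadriceps side.

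Among the carriers of adenine nucleotides and phosphate, the pair of ADP/ATP carriers was used in opposite ways. Slc25a4, the ADP/ATP carrier of heart and skeletal muscle, was at 3.22 to 9.83 CPM in liver (median 5.83) and at 2868 to 4815 CPM in quadriceps (median 3841), a log2 difference of -9.37 ± 0.09 (SE). Slc25a5, the more widely used form, was at 249 to 508 CPM in liver (median 288) and at 19.5 to 36.5 CPM in quadriceps (median 28), a log2 difference of 3.40 ± 0.06. The ranges of the tissues did not come near each other for either gene. Slc25a4 was highest in liver vehicle library 4 (9.83 CPM) and next in vehicle library 1 (8.03 CPM), the library with muscle fibre markers, and the part of carried-over muscle RNA in these levels was not tested. Slc25a3, the phosphate carrier that supplies ATP synthase, was 4.43-fold higher in quadriceps, at 570 to 1129 CPM (median 850) against 167 to 408 CPM in liver (median 189). The calcium-regulated ATP-Mg/phosphate carriers also split, Slc25a23 being higher in liver (log2 1.18 ± 0.10) and Slc25a24 higher in quadriceps (log2 -0.91 ± 0.10). Slc25a23 overlapped between tissues only through liver vehicle library 4, at 28.3 CPM against 131 CPM in the next liver. Near-identical copies of the ADP/ATP and phosphate carrier genes exist as pseudogenes in mammals, and how the counting treated reads shared with copies is not given in the sources used here.

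Of the 6 carriers of carboxylates and the malate-aspartate shuttle, 4 were higher and 2 lower in liver, against 47.3% and 43.4% of all genes. Slc25a21, among the 4, was kept through liver alone and had to be higher there. Slc25a12 and Slc25a13 are the aspartate/glutamate carriers of the shuttle, known as aralar and citrin. Slc25a12 was at 2.49 to 17.8 CPM in liver (median 11.0) and at 185 to 459 CPM in quadriceps (median 379), a 33.5-fold difference (log2 -5.07 ± 0.10). Slc25a13 ran the other way, at 70.8 to 270 CPM in liver (median 224) and at 0.919 to 3.89 CPM in quadriceps (median 1.5), a 131-fold difference (log2 7.04 ± 0.13). The liver minimum of both genes was vehicle library 4. Slc25a11, the oxoglutarate/malate carrier and the other arm of the shuttle, was 4.96-fold higher in quadriceps (65.7 to 135 CPM in liver, 283 to 513 CPM in quadriceps). Slc25a10, which exchanges malate and succinate for phosphate, was 56.0-fold higher in liver (176 to 325 CPM, against 2.69 to 5.95 CPM). Slc25a1, the citrate carrier that exports acetyl units for lipid synthesis, was at 118 to 471 CPM in liver (median 191) and at 1.01 to 3.2 CPM in quadriceps (median 1.28), a log2 difference of 7.09 ± 0.12. In quadriceps the highest Slc25a1 level was in vehicle library 2, the library with the most hepatocyte marker counts, and their part in it was not tested.

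**Figure D2:**
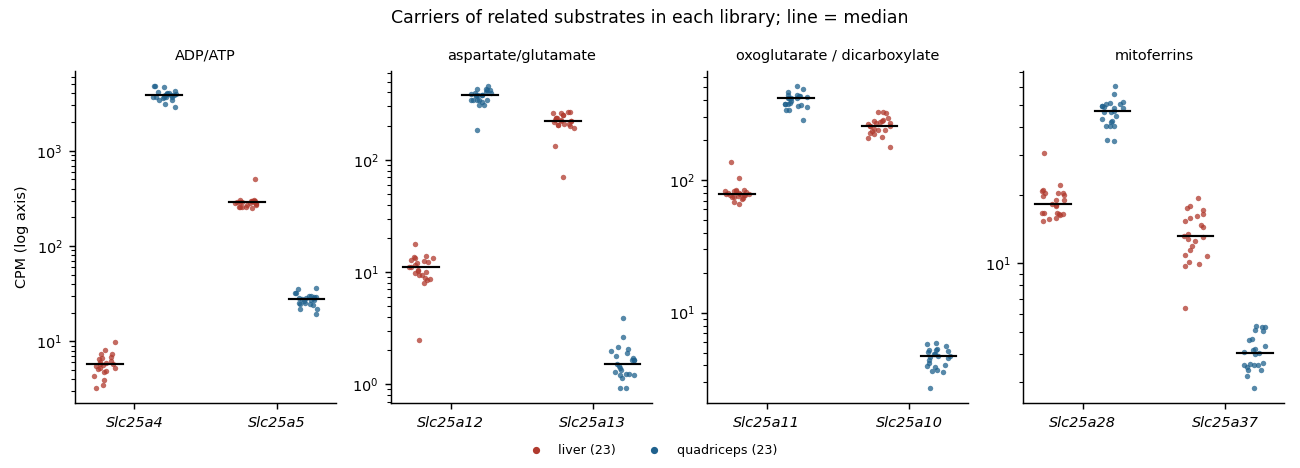
Level in CPM (log axis) of carriers of related substrates, 1 point per library (23 liver, 23 quadriceps) with the median as a line. In each panel 1 carrier is higher in quadriceps and the other in liver, as with Slc25a4 and Slc25a5, and in the mitoferrin panel Slc25a28 is higher in quadriceps (34.5 to 60.7 CPM) and Slc25a37 in liver (6.39 to 19.4 CPM).

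Of the carriers of amino acids, the ornithine carriers showed the widest split. Slc25a15, which exchanges ornithine and citrulline in the urea cycle, was 30.6-fold higher in liver, at 502 to 881 CPM there and 15.9 to 25.6 CPM in quadriceps. Its relative Slc25a29, a carrier of basic amino acids, was 1.95-fold higher in quadriceps, with overlapping ranges. Slc25a38, the glycine carrier of heme synthesis, was higher in liver (31.7 to 57.2 CPM, against 15.9 to 28.7 CPM in quadriceps). Differences were small for Slc25a44, a carrier of branched-chain amino acids (log2 0.21 ± 0.08, adjusted p = 0.0182), and for Slc25a2, another ornithine carrier (log2 -0.30 ± 0.14, adjusted p = 0.0428), and both overlapped between tissues. Slc25a20, the carnitine/acylcarnitine carrier through which long-chain fatty acids enter the matrix, was near even in the tissues, with medians of 99.4 CPM in liver and 130 CPM in quadriceps (log2 -0.34 ± 0.09).

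Carriers of cofactors were 5 higher and 3 lower in liver of 9. The pair linked to coenzyme A divided, Slc25a16 at a log2 difference of 2.07 ± 0.05 and Slc25a42 at -0.28 ± 0.07. Both glutathione carriers were higher in liver, Slc25a39 by 2.36-fold and Slc25a40 by 1.51-fold. Slc25a32, which carries folate and FAD, and the peroxisomal carrier Slc25a17 were higher in liver as well, by 2.22-fold and 1.6-fold. Slc25a26, the S-adenosylmethionine carrier, was 2.29-fold higher in quadriceps. Slc25a51, the NAD+ carrier, did not pass (log2 -0.23 ± 0.13, adjusted p = 0.0922). Of the iron carriers, mitoferrin-2 (Slc25a28) was 2.45-fold higher in quadriceps and mitoferrin-1 (Slc25a37) 3.27-fold higher in liver, with no overlap for either. The pyrimidine nucleotide carriers split in the same manner, Slc25a36 being 7.08-fold higher in quadriceps and Slc25a33 1.59-fold higher in liver.

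The carriers with an uncoupling-like sequence differed little between tissues. Slc25a27 was higher in quadriceps (log2 -0.56 ± 0.11), Slc25a14 did not pass (log2 0.17 ± 0.10, adjusted p = 0.0821), and Slc25a30 was higher in liver at log2 0.54 ± 0.24 (adjusted p = 0.0356), a difference that was -0.092 in the weight-matched libraries alone and -0.11 in the CagriSema libraries alone. The carriers of less certain substrate Slc25a34 and Slc25a35 were higher in quadriceps, by 7.76-fold and 2.91-fold. Slc25a46, an outer membrane member tied to mitochondrial shape, was 1.75-fold higher in quadriceps and was the steadiest carrier in both tissues, with a mean within-group coefficient of variation of 7.17% in liver and 8.53% in quadriceps.

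Slc25a47 and Slc25a48 marked the liver most sharply. Slc25a47, described as a hepatocyte carrier, was at 146 to 394 CPM in liver (median 197), and 4 counts were found in all 23 quadriceps libraries together, with 19 libraries at 0. Slc25a48, linked to choline import, was at 5.09 to 26.1 CPM in liver and gave 8 counts in quadriceps, 5 of them in vehicle library 2, the one with the most hepatocyte markers. The other members kept through liver alone, Slc25a21, Slc25a22 and Slc25a43, gave 26, 30 and 43 counts over all quadriceps libraries. A count of 0 in 1 quadriceps library allows up to 0.182 to 0.262 CPM, taking 3 counts as the floor and covering counting error only.

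Most lists of other mitochondrial genes leaned towards quadriceps, where 43.4% of all genes were higher. Of 45 tested nuclear genes of oxidative phosphorylation, 44 were higher in quadriceps and none in liver (median log2 -1.74), and of 16 genes of the tricarboxylic acid cycle 15 were higher in quadriceps and 1 in liver (median log2 -1.76). Of 15 tested genes of mitochondrial protein import, 12 were higher in quadriceps and 3 in liver (median log2 -0.53). Within the carriers, log2 differences reached both signs in every role group but acylcarnitines, which has 1 member.

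In liver, food restriction to a matched weight was the comparison with carrier calls. Against vehicle, 2 of 41 carriers rose and 3 fell (edgeR quasi-likelihood, Benjamini-Hochberg), while over all genes 7.02% passed, 2.49% higher and 4.53% lower, so the 5 carriers are not many more than that share gives. The 3 that fell, Slc25a1, Slc25a10 and Slc25a21, are among the 6 carriers of carboxylates and the malate-aspartate shuttle. The other 3 of that group were not called, and the highest value in it was log2 0.01. The 2 that rose were Slc25a37, mitoferrin-1, and Slc25a47. The median log2 change of the carriers was -0.02, against -0.01 over all genes.

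Slc25a1 was at 130 to 471 CPM with vehicle (median 212), 118 to 178 CPM with weight matching (median 139) and 164 to 250 CPM with CagriSema (median 196). Its fall with weight matching was log2 -0.86 ± 0.20 (SE, adjusted p = 0.0101). The vehicle libraries 4 and 6 were highest, at 471 and 424 CPM, 6 of the 8 vehicle libraries lay between 130 and 221 CPM, and the groups overlapped. Without vehicle libraries 4 and 6 the change was log2 -0.45 (adjusted p = 0.0183). Slc25a21, which carries oxoadipate and other oxodicarboxylates of lysine breakdown, was at 0.672 to 4.48 CPM with vehicle (median 2.32), 0.569 to 1.21 CPM with weight matching (median 0.858) and 0.484 to 1.85 CPM with CagriSema (median 1.38). It fell by 1.46 ± 0.32 on the log2 scale with weight matching (adjusted p = 0.00778), and it kept log2 -1.42 without vehicle libraries 4 and 6. Its 8 to 63 counts per liver library make it one of the least precisely measured members. Both genes passed in each of the 16 fits that left out 1 library.

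Slc25a10 was at 235 to 325 CPM with vehicle (median 283) and 176 to 276 CPM with weight matching (median 235), a change of log2 -0.30 ± 0.09 (adjusted p = 0.0461). Slc25a37 was at 6.39 to 15.4 CPM with vehicle (median 10.9) and 11.5 to 17.9 CPM with weight matching (median 16), a change of log2 0.50 ± 0.14 (adjusted p = 0.0339). Slc25a47 was at 146 to 263 CPM with vehicle (median 183) and 190 to 394 CPM with weight matching (median 314), a change of log2 0.62 ± 0.19 (adjusted p = 0.0493). The groups overlapped for all 3 genes, and the weight-matched livers were uneven for Slc25a47, with 4 of 8 libraries at 376 to 394 CPM and 4 at 190 to 252 CPM. These 3 calls lay near the threshold. Slc25a10 passed in 6 of the 16 fits that left out 1 library and was lost without vehicle library 3, 6, 7 or 8 or weight-matched library 25, 26, 27, 29, 30 or 31, at an adjusted p of up to 0.0951. Slc25a37 passed in 9 and was lost without vehicle 5 or 6 or weight-matched 25, 26, 29, 30 or 32 (up to 0.0698), and Slc25a47 passed in 6 and was lost without vehicle 1, 2, 3, 4 or 5 or weight-matched 25, 26, 28, 29 or 30 (up to 0.0987).

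**Figure D3:**
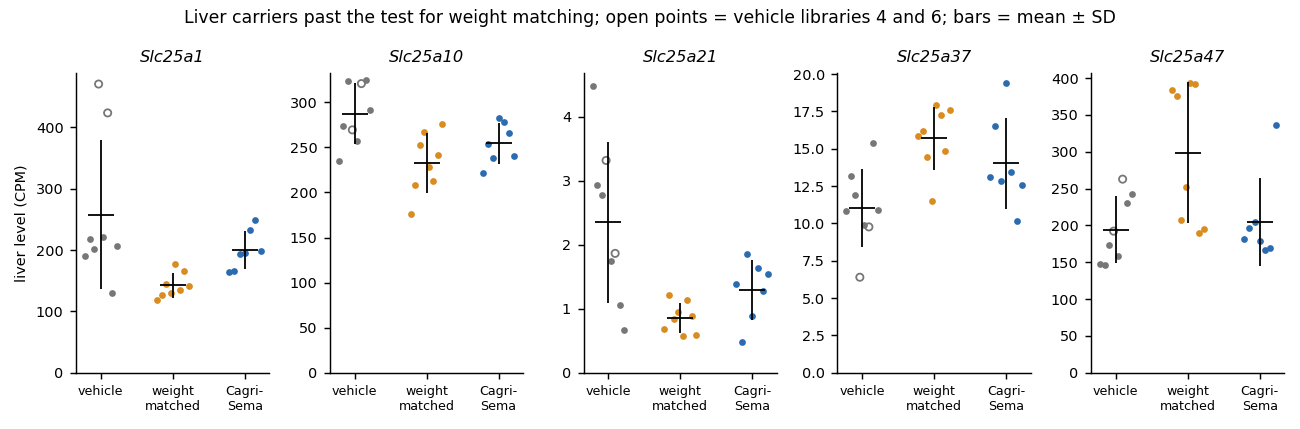
Liver level in CPM of the 5 carriers that passed between weight-matched and vehicle libraries, 1 point per library (8 vehicle, 8 weight matched, 7 CagriSema), with mean ± SD. Open points are vehicle libraries 4 and 6, which hold the highest Slc25a1 levels (471 and 424 CPM) and the lowest Slc25a37 levels (6.39 and 9.76 CPM).

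Mitoferrin-1 is used by red cell precursors. Of the 5 erythroid markers tested, 4 fell with weight matching (Alas2, Hbb, Hba-a1 and Hba-a2), while Slc4a1 was at log2 0.76 ± 0.37 (adjusted p = 0.209), and the summed level of the list was 150 to 874 CPM with vehicle, 71.7 to 163 CPM with weight matching and 145 to 207 CPM with CagriSema. The part of blood or red cell precursors in the Slc25a37 level was not tested. Of 8 hepatocyte markers, 1 rose and 2 fell with weight matching. None of the 45 oxidative phosphorylation genes passed, at a median log2 change of -0.42, with a summed level of 14572 CPM in vehicle library 4 and of 5277 to 7242 CPM in the other livers.

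When vehicle libraries 4 and 6 were left out, 7 carriers passed between weight-matched and vehicle livers, 3 of them among the 5 of all libraries (8.16% of all genes passed). Slc25a37 (log2 0.39, adjusted p = 0.0601) and Slc25a10 (log2 -0.29, adjusted p = 0.0577) no longer passed, and Slc25a47 was at log2 0.71 (adjusted p = 0.0452). The carriers that then passed in addition were Slc25a13, citrin (log2 -0.25), the uncoupling-like Slc25a27 (log2 -0.71), the peroxisomal Slc25a17 (log2 0.21) and the pyrimidine nucleotide carrier Slc25a33 (log2 0.41). For Slc25a13 the vehicle range of 70.8 to 270 CPM, with vehicle libraries 4 and 6 lowest at 70.8 and 133 CPM, stood against 191 to 261 CPM with weight matching. DESeq2 on all libraries also called 7, the 5 of edgeR with Slc25a27 and Slc25a38. The share of all genes that DESeq2 called is not given here, so this count is not read as a result about the carriers.

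With CagriSema, no liver carrier passed against vehicle by edgeR, where 0.354% of all genes passed. At an unadjusted p under 0.05 there were 10 of 41 carriers (24.4%), against 17.8% of all genes. DESeq2 called 1 carrier, Slc25a20 (log2 -0.37, adjusted p = 0.0235). Its share over all genes is not given here, so this count is not read as a result about the carriers. Slc25a20 was at 94.3 to 162 CPM with vehicle (median 117) and 76.9 to 102 CPM with CagriSema (median 89.8), with an edgeR log2 difference of -0.37 ± 0.10 (adjusted p = 0.0910). The highest vehicle level was that of library 4, and without vehicle libraries 4 and 6 the edgeR difference was log2 -0.27 (adjusted p = 0.125). Slc25a27 was at 1.15 to 3.37 CPM with vehicle (median 2.36) and 0.879 to 1.93 CPM with CagriSema (median 1.44), a log2 difference of -0.69 ± 0.21 (adjusted p = 0.134), which was -0.78 (adjusted p = 0.0981) without those libraries. CagriSema and weight matching were compared with the same vehicle libraries, so their values are not independent. For the 5 carriers that passed with weight matching, CagriSema against vehicle gave log2 -0.37 ± 0.20 for Slc25a1, -0.18 ± 0.10 for Slc25a10, -0.87 ± 0.32 for Slc25a21, 0.34 ± 0.15 for Slc25a37 and 0.074 ± 0.20 for Slc25a47.

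Between CagriSema and weight-matched livers, no carrier passed by edgeR over all 3 groups (0.535% of all genes passed), and DESeq2 called 0. An unadjusted p under 0.05 was reached by 5 of 41 carriers (12.2%), against 10.6% of all genes. Slc25a17, the peroxisomal carrier, was at 19.7 to 24.4 CPM with CagriSema (median 23.5) and 24.4 to 29.8 CPM with weight matching (median 26.7), a log2 difference of -0.22 ± 0.08 (adjusted p = 0.231). Slc25a47 was at 167 to 337 CPM with CagriSema (median 181), and its log2 difference to weight matching was -0.54 ± 0.20 (adjusted p = 0.255). The vehicle libraries are in neither group of this comparison but were fitted with it. Without vehicle libraries 4 and 6, with 12762 genes tested in place of 12702, 3 carriers passed, where 4.62% of all genes did: Slc25a1 (log2 0.49, adjusted p = 0.0156) and Slc25a44 (log2 0.34, adjusted p = 0.0363) were higher and Slc25a17 (log2 -0.22, adjusted p = 0.0356) lower with CagriSema. The same 3 passed with these 2 groups fitted alone, for which the share of all genes is not given here. Slc25a44, the branched-chain amino acid carrier, was described here after its values were seen, and stood at 19.3 to 22.7 CPM with CagriSema and 14 to 17.9 CPM with weight matching, with no overlap, against 3.2 to 21.0 CPM with vehicle.

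In quadriceps, no carrier passed in any of the 3 comparisons by edgeR, and DESeq2 called 0 in each. Weight matching against vehicle had 7 of 36 (19.4%) at an unadjusted p under 0.05, against 19.2% of all genes. After adjustment 2.29% of all genes passed. CagriSema against vehicle had 2 of 36 (5.56%) at an unadjusted p under 0.05, against 10.3% of all genes. After adjustment 0.0321% of all genes passed against vehicle and 0.128% against weight matching. The median log2 difference of the carriers was 0.01, 0.06 and 0.07 in these comparisons. All carrier differences lay between log2 -0.62 and 0.68.

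Slc25a1 was the quadriceps carrier with the lowest p under weight matching, as values only. It was at 1.26 to 3.2 CPM with vehicle (median 1.61), 1.03 to 1.30 CPM with weight matching (median 1.17) and 1.01 to 1.80 CPM with CagriSema (median 1.31), and the difference between weight matching and vehicle was log2 -0.62 ± 0.19 (adjusted p = 0.0799). Vehicle library 2 alone was above 1.84 CPM, and without vehicle libraries 2 and 5 the value was -0.35. Slc25a28, mitoferrin-2, was at 34.5 to 55.8 CPM with vehicle (median 41.8) and 46.6 to 60.7 CPM with weight matching (median 49.7), at log2 0.24 ± 0.08 (adjusted p = 0.114). The groups overlapped for both genes, and without vehicle library 4 both passed, Slc25a1 at log2 -0.69 (adjusted p = 0.0475) and Slc25a28 at 0.32 (adjusted p = 0.0283). For CagriSema against vehicle the lowest p were those of Slc25a24 (3.09 to 7.0 CPM with vehicle, 2.69 to 3.98 CPM with CagriSema, log2 -0.49 ± 0.17, adjusted p = 0.315) and of Slc25a1 (log2 -0.39 ± 0.19, adjusted p = 0.479). For CagriSema against weight matching they were those of Slc25a15 (19.6 to 23.5 CPM with CagriSema, 16.1 to 22.4 CPM with weight matching, log2 0.24 ± 0.08, adjusted p = 0.492) and Slc25a39 (log2 0.20 ± 0.10, adjusted p = 0.645). The ADP/ATP carrier Slc25a4, at 2868 to 4224 CPM with vehicle, 3695 to 4812 CPM with weight matching and 3452 to 4815 CPM with CagriSema, overlapped in all groups.

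**Figure D4:**
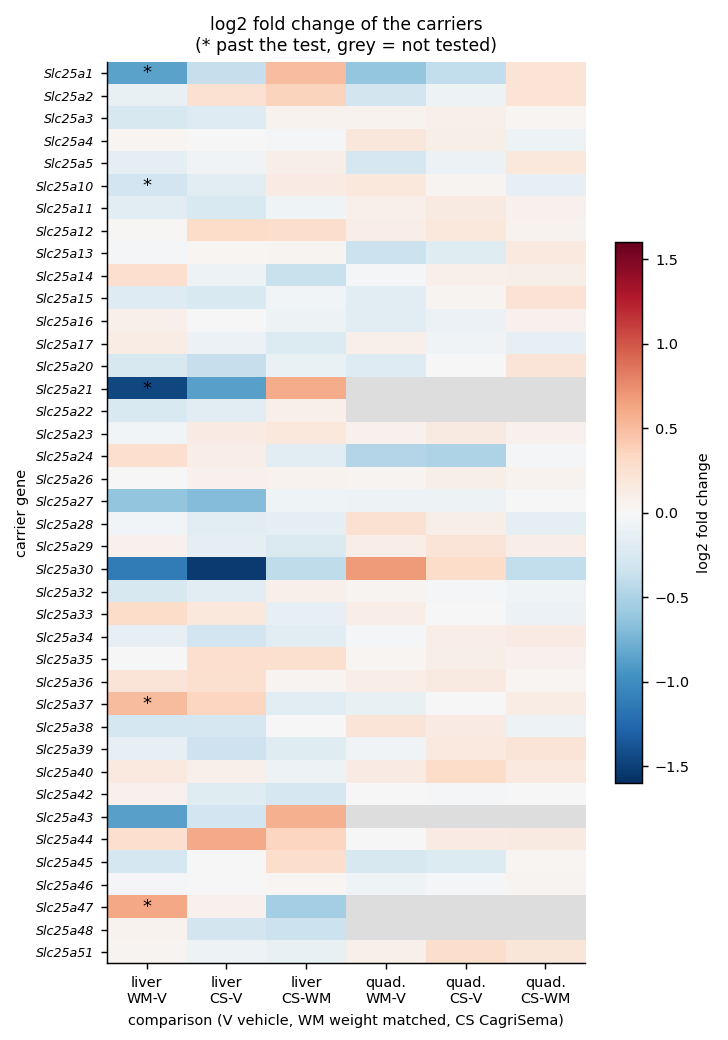
Log2 fold change of the carriers reported in the 6 treatment comparisons (colour, from blue for lower to red for higher), with stars for those past the test and grey for the 5 carriers not tested in quadriceps. The 5 stars are all in the liver column of weight matching against vehicle, and the deepest blue fields without a star are Slc25a30 in liver, at -1.12 and -1.53.

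Whether the response to weight matching differed between tissues was tested over all 46 libraries. Of 41 carriers 1 passed, where 2.76% of all genes did: Slc25a38, the glycine carrier of heme synthesis, at log2 -0.49 ± 0.13 for the liver response minus the quadriceps response (adjusted p = 0.0255). In liver it was at 35.1 to 57.2 CPM with vehicle (median 41.1) and 31.8 to 39.5 CPM with weight matching (median 34.7), a log2 difference of -0.28 ± 0.09 that did not pass by edgeR on its own (adjusted p = 0.0720). In quadriceps it was at 15.9 to 28.1 CPM with vehicle (median 22) and 23.8 to 28.7 CPM with weight matching (median 25.9), a log2 difference of 0.21 ± 0.08 (adjusted p = 0.150). The extreme values were in vehicle libraries, liver library 6 at 57.2 CPM and quadriceps library 5 at 15.9 CPM. Without liver vehicle 4 and 6 and quadriceps vehicle 2 and 5 the difference of responses was log2 -0.27 (adjusted p = 0.201). It was also lost without liver vehicle 6 (adjusted p = 0.0543) or quadriceps vehicle 5 (adjusted p = 0.0528) alone. Among the carriers that passed in liver, Slc25a37 had a difference of responses of log2 0.62 ± 0.20 (adjusted p = 0.0783) and Slc25a10 of -0.47 ± 0.16 (adjusted p = 0.0869), neither past the test by edgeR. DESeq2 called 3 carriers for this difference: Slc25a38, Slc25a10 (log2 -0.50, adjusted p = 0.0449) and Slc25a30 (log2 -1.82, adjusted p = 0.0490). The share of all genes that it called is not given here. For CagriSema no carrier passed by edgeR, either against vehicle (0.149% of all genes passed) or against weight matching (0.0213%), and DESeq2 called 0 in both.

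Libraries of 1 group varied widely for some carriers. Slc25a30 had a mean within-group coefficient of variation of 80.5% in liver, with vehicle library 5 at 136 CPM and vehicle library 4 at 4.74 CPM. Its liver levels were 4.74 to 136 CPM with vehicle (median 34.5), 7.22 to 51.6 CPM with weight matching (median 21.5) and 6.55 to 57.0 CPM with CagriSema (median 11.6). Differences of log2 -1.12 ± 0.51 (weight matching) and -1.53 ± 0.53 (CagriSema) against vehicle did not pass at this spread (adjusted p = 0.180 and 0.177). In quadriceps Slc25a34 ranged from 5.17 CPM in vehicle library 2 to 59.1 CPM in vehicle library 8.

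Those 2 quadriceps libraries also lay at the ends of the share of counts from the 13 mitochondrially encoded genes, 11.0% and 22.8%. The relation of each carrier to this share was therefore computed after the data were seen, with carrier levels as CPM of the other counts so that the share does not enter its own comparison. Of 77 relations in both tissues, 16 passed by both Pearson's r and Spearman's rho after Benjamini-Hochberg adjustment (permutation tests, 100000 draws, two-sided), all 16 in quadriceps and all positive, out of 36 carriers there. None of the 41 passed in liver. Slc25a3 had r = 0.888 and rho = 0.857, Slc25a11 had r = 0.863 and rho = 0.867, and Slc25a20 had r = 0.858 and rho = 0.798, over 23 libraries. The permutation p of r was 1e-05 for each, the smallest that these draws can give (adjusted p = 0.000192), and those of rho were 1e-05, 1e-05 and 2e-05 (adjusted p = 0.000257, 0.000257 and 0.000308). Leaving out the 2 libraries farthest from the median share, vehicle 7 (19.0%) and vehicle 8 (22.8%), gave r of 0.877, 0.877 and 0.841. Vehicle library 2 stayed in, so these values do not show the relation without it.

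Within each group the relation of these carriers had the same sign. For Slc25a3, r was 0.940 in vehicle, 0.845 in weight-matched and 0.941 in CagriSema libraries. For Slc25a20 it was 0.851, 0.946 and 0.887 in the same order. Among the other carriers that passed were Slc25a4, Slc25a12, Slc25a15, Slc25a26, Slc25a33, Slc25a34 and Slc25a42, while Slc25a5 (r = 0.402), Slc25a13 (r = 0.117) and Slc25a30 (r = -0.37) did not. The carriers stood between 2 references in quadriceps: r was above 0.5 in 50% of the 36 carriers, in 21.4% of 12458 genes and in all 45 genes of oxidative phosphorylation, with medians of 0.453, 0.209 and 0.880. Slow fibre markers also varied in these muscles, summing to 265 to 10292 CPM, with vehicle library 8 highest, and their part in the relation was not tested.

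**Figure D5:**
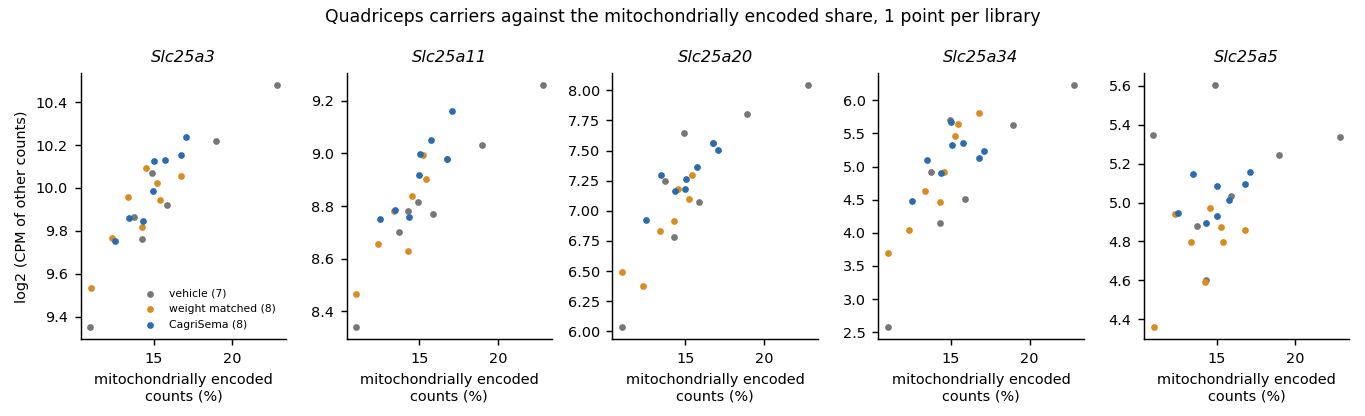
Log2 level of 5 carriers (CPM of counts without mitochondrially encoded genes) against the percentage of counts from mitochondrially encoded genes in 23 quadriceps libraries, coloured by group. Slc25a3, Slc25a11, Slc25a20 and Slc25a34 rise with the share over all 3 groups (r = 0.888, 0.863, 0.858 and 0.764), and Slc25a5 does so less (r = 0.402, not past the test).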

How the data were processed

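Gene counts of 46 bulk RNA libraries, 23 of liver and 23 of quadriceps, were used as deposited: whole-number counts per gene that the authors did not normalize, in 1 table of 32552 genes. The labels' protocols list the RNeasy Minikit for extraction and the Twist UMI system for the libraries. The tools named are fastp 0.23.1, STAR 2.5.2b, per the submitters' processing notes. Which program counted reads, on which build and annotation, and whether molecular identifiers were collapsed, is not given in the sources used here. Libraries were found by column title, which left out 1 count column. No 2 libraries were near-identical (lowest chi-square per degree of freedom of a pair 13.1 in liver and 5.52 in quadriceps, over 253 pairs each).

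In R 4.3.3, edgeR 4.0.16 fitted quasi-likelihood models (robust, filterByExpr, TMM, Benjamini-Hochberg over all genes tested, threshold 0.05) to the 3 groups of liver (12702 genes), the 3 of quadriceps (12471) and all 6 groups (14110). Every adjusted p is from these fits unless another tool is named, and log2 differences carry their SE. Of the 41 carriers, all were tested in liver and over both tissues and 36 in quadriceps. The member rule used counts over library totals, and printed CPM values use TMM-scaled sizes of the 46-library fit. The fits were also run on simulated counts with known changes, and the share of changes recovered is not reported here.

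The members and lists were chosen with earlier results of these data known. Named carriers are those past the threshold in a treatment comparison (or the 2 with the lowest p), the 6 largest tissue differences in each direction, those kept through liver alone, pairs of related carriers and those past a test of the difference between tissues; others were named after their values were seen. List genes without a row (10) were not analysed here, and 1 carrier enters the counts but is not reported by name or drawn. Alternatives were DESeq2 1.42.0, other scalings, no filter, no mitochondrially encoded genes, 2 groups alone, a replicate block, and leaving out libraries. Promoters are from RefSeq (GRCr8).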

Additional observations from a re-analysis of the deposited data

Results flagged for a closer look

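Of 51 groups of 7 or 8 libraries tested for the named carriers, 6 held 1 library far from the others. The rule has a nominal rate of about 1 in 20. That rate is no yardstick here, since the carriers were named from the same data and share libraries. In liver these were Slc25a20 in vehicle library 4 at 162 CPM, Slc25a27 in weight-matched library 28 at 1.08 CPM, and both Slc25a30 (57.0 CPM) and Slc25a47 (337 CPM) in CagriSema library 40. In quadriceps they were Slc25a1 in vehicle library 2 at 3.2 CPM and Slc25a28 in weight-matched library 31 at 60.7 CPM. The response of Slc25a38 to weight matching differed between liver and quadriceps, at log2 -0.49 by the edgeR test of the difference (adjusted p = 0.0255), as 1 of 41 carriers where 2.76% of all genes passed. It did not pass without liver vehicle 6 (adjusted p = 0.0543) or quadriceps vehicle 5 (adjusted p = 0.0528), and it was log2 -0.27 (adjusted p = 0.201) without liver vehicle 4 and 6 and quadriceps vehicle 2 and 5.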

How the results depend on the processing

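Of the counts of carriers called, those of liver weight matching against vehicle were 7 by DESeq2, 3 with no filter on low counts and 2 with these groups alone, and 2 to 6 when single libraries were left out. Shares of all genes called are not given for these alternatives, so their counts are not read as results about the carriers. Leave-one-out counts were 0 to 1 for liver CagriSema against vehicle (1 without vehicle 4), 0 to 2 for quadriceps weight matching against vehicle (1 without vehicle 1 and 2 without vehicle 4), 37 to 40 for the tissue comparison, 0 to 2 for the difference of the weight-matching responses and 0 to 1 for the difference of CagriSema against vehicle (1 without liver CagriSema 40). DESeq2 called 1 in liver CagriSema against vehicle and 3 in the difference of the weight-matching responses. By edgeR the latter count was 1 with all libraries and 0 without the 4 vehicle libraries that stand apart. Liver CagriSema against weight matching gave 3 with 2 groups alone and 3 without vehicle 4 and 6. Library totals alone gave 1 in quadriceps weight matching (Slc25a1, log2 -0.71) and moved the median of all genes in liver weight matching from -0.01 to 0.11, in liver CagriSema against vehicle from -0.02 to 0.14, and the carriers with them, to 0.10 and 0.08. In the tissue comparison, Slc25a30 reversed to -0.092 in weight-matched and -0.11 in CagriSema libraries alone, and Slc25a14 to -0.059 in the latter. The cause of these changes was not tested. Liver and quadriceps libraries share 22 numbers, and 18 of these liver libraries correlated best with the quadriceps library of their own number within their group. The correlations were small, with 6 pairs above 0.1 (median 0.0737). Whether a shared number means 1 animal is not stated. The main fits took all libraries as independent. If numbers do mark animals, p-values of the tissue comparison and of the differences of responses leave that pairing out. With the replicate block the tissue count was 37 and the differences of responses gave 1, 0 and 0.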
